A study of Mus musculus with 3 samples.

Results

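The mitotic spindle and kinetochore genes are a set of 44 genes that build the spindle, attach chromosomes to it and separate them: mitotic kinases, spindle checkpoint proteins, centromere and kinetochore subunits, kinesins, condensin, the proteins that trigger anaphase, and the Ki-67 antigen. Members were taken by gene name, through every probe set whose platform annotation gave a single symbol on the list. All 44 had a value, on 99 of 34945 probe sets with a single symbol (44 of 18193 genes). The cells came from kidneys of mouse fetuses at E15.5 (embryonic day; Theiler stage 23) that carried the transgene Tg(Meis1-EGFP)FO156Gsat on a CD-1 background, sex Unknown. Their reporter, an enhanced green fluorescent protein, follows Meis1 regulatory sequence, so the sort read the reporter and not the Meis1 protein itself. Kidneys in lots of approximately 20 were dissociated with trypsin, and a flow sorter kept the fluorescent cells. There were 3 arrays, 1 pool of kidneys on each, all of 1 group, with no unsorted kidney and no sorted negative fraction. The labels call the cells nephrogenic interstitium in one place and peripheral blastema in another.

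In a dividing cell, the centromere carries a special nucleosome on which the kinetochore assembles, and the kinetochore's outer complexes grip microtubules of the spindle. Checkpoint proteins hold back anaphase until every kinetochore is attached. The anaphase-promoting complex then marks securin and cyclin B for destruction, which frees separase to cut the cohesin rings between sister chromatids. Most of these transcripts are made late in the cell cycle, so they are widely read as signs of proliferation, and stromal progenitors of the fetal kidney cortex are known to divide. A bulk signal averages all sorted cells, so a larger share of dividing cells and more RNA per dividing cell cannot be told apart here.

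The promoters of the set were rich in a pair of short elements. The CHR element (cell cycle genes homology region) is bound by the DREAM complex in resting cells and by MuvB with B-Myb and FoxM1 in cycling cells, and the CCAAT box is bound by NF-Y. RefSeq (GRCm38.p6) gave 42 promoters of 300 bases, from 250 before to 50 after the start, for 38 members. Incenp, Kif20a, Tpx2, Spc24, Aurkb and Smc4 were not matched. The CHR element was searched as TTTGAA and the CCAAT box as CCAAT, each on both strands, and the words can share 1 base at their ends. The last 100 bases before the start are printed here for 8 members. They are the members in which a CHR element and a CCAAT box both lie wholly within those bases. This choice itself keeps the pair close, so the windows serve as examples. For Bub3 and Prc1, which have several starts, the earliest listed start that meets this rule is used. Capitals mark the matches on either strand, and each sequence is written 5′ to 3′ on the strand of its gene.
Top2a (chr11:99024190-99024289, minus strand): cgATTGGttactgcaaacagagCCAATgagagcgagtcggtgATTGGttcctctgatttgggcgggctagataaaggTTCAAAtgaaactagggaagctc
Bub3 (chr7:131560270-131560369, plus strand): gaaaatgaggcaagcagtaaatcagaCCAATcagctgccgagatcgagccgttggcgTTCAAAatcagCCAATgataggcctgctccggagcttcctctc
Cenpn (chr8:116921640-116921739, plus strand): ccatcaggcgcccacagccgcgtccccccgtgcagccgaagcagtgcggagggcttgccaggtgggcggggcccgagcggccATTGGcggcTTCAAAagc
Kif11 (chr19:37376282-37376381, plus strand): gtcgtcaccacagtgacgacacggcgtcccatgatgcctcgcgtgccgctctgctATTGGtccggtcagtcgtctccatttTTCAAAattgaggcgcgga
Prc1 (chr7:80294376-80294475, plus strand): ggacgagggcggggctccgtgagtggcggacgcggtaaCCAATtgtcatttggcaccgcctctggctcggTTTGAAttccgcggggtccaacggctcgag
Cdc20 (chr4:118437344-118437443, minus strand): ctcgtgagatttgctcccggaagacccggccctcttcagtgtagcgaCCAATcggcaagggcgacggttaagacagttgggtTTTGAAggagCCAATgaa
Ube2c (chr2:164769829-164769928, plus strand): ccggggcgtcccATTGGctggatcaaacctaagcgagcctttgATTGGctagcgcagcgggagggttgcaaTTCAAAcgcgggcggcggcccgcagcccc
Espl1 (chr15:102296193-102296292, plus strand): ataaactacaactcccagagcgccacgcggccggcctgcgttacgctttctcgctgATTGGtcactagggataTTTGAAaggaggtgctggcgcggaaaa

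In 7 of these 8 windows a CCAAT box lies between 17 and 35 bases upstream of the CHR element, counted from first base to first base. In Cenpn the distance is 9 bases. The length of the window limits these distances. Bub3 and Cdc20 also have a box downstream of the CHR element, closer to it than the one counted. The 8 genes come from 6 of the 10 roles into which the set was sorted: topoisomerase (Top2a), the checkpoint (Bub3), the inner kinetochore (Cenpn), spindle motors and cross-linkers (Kif11, Prc1) and the trigger of anaphase (Cdc20, Ube2c, Espl1). No mitotic kinase, Ndc80 complex, chromosomal passenger or condensin gene is among them. This does not mean that these roles lack the pair, because only the last 100 bases before the start were used. In the full 300 bases both words were found in Aurka, Plk1, Spc25, Cdca8, Smc2, Ncapd2 and Ncapg. Aurkb, Incenp, Spc24 and Smc4 had no matched promoter.

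Over all 42 promoters, 28 (66.7%) held a CHR element, against 17.9% of all 32851 RefSeq promoters of the same length. A CCAAT box was found in 31 (73.8%), against 37.4% of all promoters, and both together in 24 (57.1%), against 6.95%. Promoters of the measured genes above background held a CHR element in 12% of cases, below the share in the set. Counted by gene, 26 of 38 members had a CHR element (68.4%), against 20.2% of all genes. CHR elements of the set also lay near the start: 25 of 33 (75.8%) began within 50 bases of it, against 25.3% over all promoters. From the nearest upstream CCAAT box the median distance was 31.5 bases in 24 promoters of the set, against 59 bases in 1227 of all promoters. Promoters from different starts of Bub3 overlap, as do those of Prc1. The same CHR element and CCAAT box of these genes therefore count more than once in both results.

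DNA replication genes, which act in S phase, shared the CCAAT box but seldom the CHR element. Their 37 promoters held a CCAAT box in 22 cases (59.5%), between the share in the mitotic set and that of all promoters. They held a CHR element in 4 cases (10.8%) and an E2F core (TTCCCGC or TTGGCGC, both strands; the reverse of the CCAAT box can overlap the second word) in 19 (51.4%). The 18 promoters of cyclins, cell-cycle kinases and their regulators lay between, with a CHR element in 6 (33.3%) and a CCAAT box in 11 (61.1%). In the mitotic set the E2F core was found in 9 of 42 promoters (21.4%), against 6.81% of all promoters and 12.3% of those of genes above background. The E2F core was not particular to replication genes: promoters of a list of germ cell meiosis genes and paralogues held it in 12 of 29 cases (41.4%). A tandem of GCGG, 4 bases of any kind and TTTGAA was found in 1 of the 42, that of Cenpf, and in 0.07% of all. A match is a run of letters and not a bound site, and no match says only that the letters are not in this window. Among the proteins that act through these elements, Foxm1 had signals of 1172, 936 and 859 in replicates 1, 2 and 3, Mybl2 had 497, 449 and 385, and Lin54, the MuvB subunit that contacts the CHR element, had 7202, 7459 and 6379. These genes were named after their values were seen, and each was above background (limma adjusted p = 7.85e-05 for Foxm1, 0.000998 for Mybl2 and 1.97e-06 for Lin54).

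**Figure D1:**
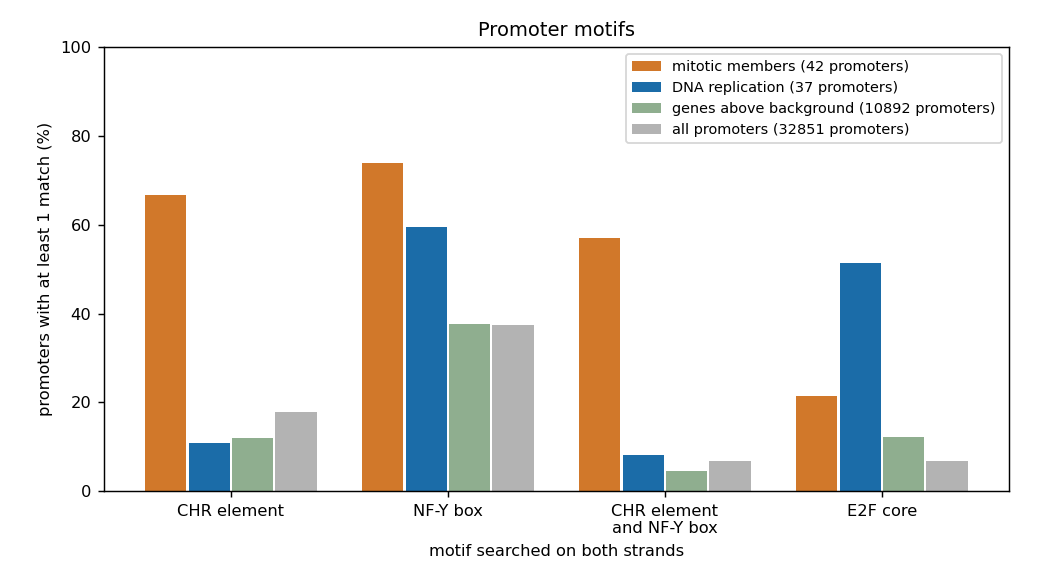
Share of promoters (y axis, percent) with at least 1 match to each motif (x axis) for the mitotic genes, DNA replication genes, genes above background and all RefSeq promoters. The NF-Y box is the CCAAT box. The CHR element was found in 66.7% of the mitotic promoters and 10.8% of the replication promoters, and the E2F core in 21.4% and 51.4%.

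Whether these transcripts were present in the sorted cells was asked array by array. Chemosensory receptors, which are made in sensory neurons, served as genes off in kidney: each array's background level was set where 95% of the 70 measured ones lay lower in log2 signal, and it stood at signals of 138, 187 and 170 in replicates 1, 2 and 3. The distance of a gene is its log2 signal minus that level, averaged over the arrays. Limma tested whether it exceeded 0 (one-sided), p-values were adjusted by Benjamini-Hochberg across every gene, and 0.05 was the threshold. A gene took the value of its brightest probe set. Probe sets differ in affinity, so single genes are not ranked against each other, and medians over lists of different genes describe detection and are not levels of RNA.

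Of the 44 mitotic genes, 43 (97.7%) were above background, beside 57.2% of all 18193 genes tested. Their median distance was 6.03 log2 units, beside 1.5 over all genes. Distances of the 43 ran from 3.46 to 8.26 log2 units, and on no single array did any of them come closer than 3.01. The largest limma adjusted p among them was 2.48e-05. Taken as the mean over a gene's probe sets, 43 members were again above background, beside 50.3% of all genes, but the median distance was 4.06 and the lowest called members were Incenp at 0.87, Top2a at 1.55 and Kif23 at 1.82. By the brightest probe set, 43 lay over the level on all 3 arrays with no test, beside 59.1%. Kif15 was the exception.

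**Figure D2:**
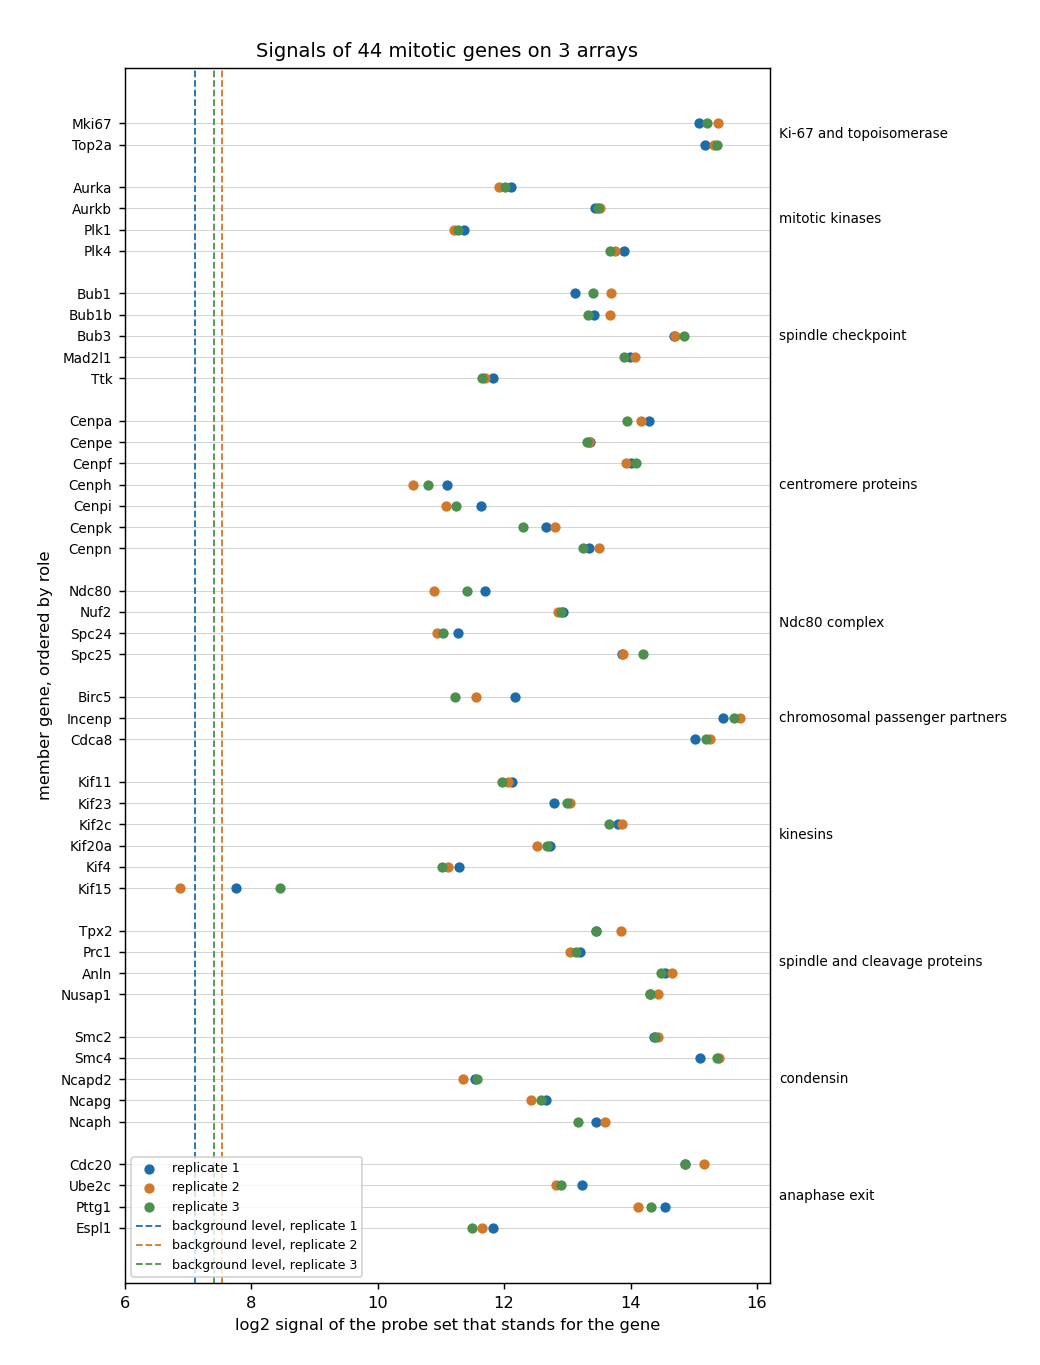
Log2 signal (x axis) of each of the 44 mitotic genes (y axis, by role) on the 3 arrays, 1 point per array, with the background level of each array as a dashed line. All members except Kif15 lie clear of the 3 levels, and Kif15 lies below the level of its array in replicate 2.

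Ki-67 and topoisomerase II alpha are the classical proliferation markers. Mki67, whose protein coats mitotic chromosomes, had signals of 34560, 42838 and 37759 in replicates 1, 2 and 3 (mean 38386 ± 4174, SD, n = 3). Top2a, which untangles sister DNA molecules, had 37160, 40802 and 42493 (mean 40152 ± 2725). They lay 234-fold and 245-fold over the background level. In both, replicate 1 was the lowest array by signal as deposited. Relative to each array's own background level it was the highest, at 7.97 log2 units for Mki67 and 8.07 for Top2a.

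All 4 mitotic kinases were above background. Aurka, which matures the spindle poles, had signals of 4409, 3868 and 4139, and lay 4.66 ± 0.22 log2 units above background (moderated SE, n = 3; limma adjusted p = 3.70e-06). Aurkb, the kinase that corrects wrong attachments at the centromere, had 11065, 11720 and 11531. As deposited, the 3 pools agreed closely for both, with coefficients of variation of 6.54% and 2.94%. Relative to each array's background level, Aurka lay at 4.998, 4.373 and 4.604 log2 units in replicates 1, 2 and 3. Aurkb lay at 6.325, 5.972 and 6.082. Plk1, which drives mitotic entry and centrosome maturation, had 2647, 2372 and 2466. Plk4, the kinase that starts centriole duplication, had 15181, 13821 and 13020. Among their paralogues outside the set, Aurkc, which is known from meiosis, had 204, 155 and 186 and was not above background (0.14 ± 0.24, limma adjusted p = 0.478). Plk2 was above background with 3468, 3576 and 3355 (4.40 ± 0.20, limma adjusted p = 3.47e-06), while Plk3 (128, 149 and 32) and Plk5 (35, 217 and 125) were not (both limma adjusted p = 1).

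The 5 spindle checkpoint genes were all above background. Bub1, a kinase that recruits checkpoint proteins to the kinetochore, had signals of 8866, 13174 and 10915. Its partner Bub1b, which inhibits the anaphase-promoting complex, had 10996, 13072 and 10274. For both, replicate 2 was the highest array. Bub3, which binds both of them to the kinetochore, had 26308, 26726 and 29321, and Mad2l1, the Mad2 protein that captures Cdc20, had 16276, 17285 and 15229. Ttk, the Mps1 kinase at the top of the checkpoint, had 3625, 3334 and 3213. These genes differed among arrays by at most 1.49-fold, the value for Bub1.

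Centromere genes were above background in 7 of 7 cases. Cenpa, the histone variant that marks the centromere, had signals of 20040, 18299 and 15846 (6.78 ± 0.22 log2 units above background, limma adjusted p = 1.43e-06). Of the constitutive network built on it, Cenph had 2185, 1507 and 1769, Cenpi 3195, 2161 and 2412, Cenpk 6465, 7183 and 5037, and Cenpn 10424, 11605 and 9734. Cenph and Cenpi were highest in replicate 1 and lowest in replicate 2, and Cenpk and Cenpn were highest in replicate 2. Cenpe, the kinesin that carries chromosomes to the equator, had 10522, 10378 and 10208. As deposited, its coefficient of variation (1.51%) was the lowest of the set. Relative to each array's background level it lay at 6.25, 5.80 and 5.91 log2 units in replicates 1, 2 and 3. Cenpf, a large coiled-coil protein of the outer kinetochore, had 16437, 15603 and 17324.

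The Ndc80 complex, the main microtubule grip of the kinetochore, had 4 of 4 genes above background. Ndc80 itself had signals of 3323, 1904 and 2720, a 1.75-fold spread between the highest and the lowest array. Nuf2, its partner at the microtubule end, had 7848, 7368 and 7616. Spc24 and Spc25 anchor the complex to the inner kinetochore, and they had 2462, 1967 and 2105, and 14841, 15014 and 18703. Ndc80, Nuf2 and Spc24 were each highest in replicate 1 and lowest in replicate 2, whereas Spc25 was highest in replicate 3.

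The partners of Aurkb in the chromosomal passenger complex were above background in 3 of 3 cases. Birc5, the survivin protein that brings the complex to the centromere, had signals of 4616, 3003 and 2402 (mean 3340 ± 1145, SD, n = 3; 4.30 ± 0.30 log2 units above background, SE). That 1.92-fold spread was the widest among the 43 genes above background, with replicate 1 high. Cdca8, known as borealin, had 33289, 39102 and 37482. Incenp, the scaffold of the complex, had 45128, 54698 and 51187 on its brightest probe set and 2291, 1731 and 2084 on the next.

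Kinesins of the spindle were above background in 5 of 6 cases. Kif11, the motor that pushes the poles apart, had signals of 4482, 4295 and 4012. Kif23, a subunit of centralspindlin at the cleavage site, had 7101, 8438 and 8199, and Kif2c, which depolymerises microtubules at centromeres, had 14269, 14943 and 12932. Kif20a, which moves the passenger complex to the midzone, had 6743, 5896 and 6530, and the chromosome-bound motor Kif4 had 2501, 2218 and 2078. Among these 5 the widest spread between arrays was 1.204-fold, in Kif4.

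Kif15, a motor that can stand in for Kif11 at the spindle, had signals of 217, 118 and 353. It lay 0.35 ± 0.36 log2 units above background (SE, n = 3), which did not pass (limma adjusted p = 0.317). Replicate 2 was below its level by 0.66 log2 units and replicates 1 and 3 were above theirs by 0.65 and 1.05. Without replicate 2 the distance was 0.85 and passed (limma adjusted p = 0.0187). It was below 0 without replicate 3 (-0.0047), with the level at the 99th percentile (-0.12) and with a level from genes restricted to other tissues (-0.10), so its direction was not settled. The gene has 1 probe set, so no other measurement of it was at hand, and a probe set can fail: its transcript was not shown to be absent.

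Spindle and cleavage proteins were above background in 4 of 4 cases. Tpx2, which activates Aurka on spindle microtubules, had signals of 11212, 14764 and 11211, with replicate 2 high. Prc1, which cross-links the midzone, had 9426, 8449 and 9022. Anln, a scaffold of the contractile ring, had 23963, 25934 and 22886, and Nusap1, a microtubule-binding protein of the spindle, had 20263, 22192 and 20181.

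Condensin, the ring that compacts chromosomes, had 5 of 5 genes above background. Its core ATPases Smc2 and Smc4 had signals of 21257, 22126 and 21327, and of 34957, 43151 and 42399. The subunits particular to condensin I were Ncapd2 with 2970, 2615 and 3048, Ncapg with 6520, 5476 and 6123, and Ncaph with 11165, 12407 and 9220. The condensin II subunits Ncapd3 and Ncapg2 were above background too (4.70 ± 0.22 and 5.27 ± 0.19 log2 units). The meiotic cohesin Smc1b was not (10, 22 and 14; -3.48 ± 0.22, limma adjusted p = 1).

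The genes that trigger anaphase were above background in 4 of 4 cases. Cdc20, the activator of the anaphase-promoting complex, had signals of 29915, 36691 and 29786, and Ube2c, its ubiquitin-conjugating enzyme, had 9676, 7202 and 7636. Pttg1, the securin that holds separase in check, had 23969, 17835 and 20398, and Espl1, separase, had 3632, 3203 and 2874. Ube2c and Pttg1 were both highest in replicate 1 and lowest in replicate 2, by 1.34-fold. The paralogue Cdc20b had 38, 77 and 99 and was not above background (-1.30 ± 0.26, limma adjusted p = 1).

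Other genes of the same machinery followed the members. Outside the set, 96 of 99 measured genes of the kinetochore, spindle, condensin, cohesin and anaphase-promoting complex were above background (97%, beside the same 57.2% of all genes), with a median distance of 4.90 log2 units. The 3 that were not were Cenpb, a protein that binds a centromeric repeat (92, 10 and 72), the checkpoint protein Mad1l1 (26, 12 and 26) and the cytokinesis kinesin Kif14 (10, 54 and 26). Kinetochore genes were above in 31 of 33 cases, with Cenpc1, which links Cenpa nucleosomes to the kinetochore, at 4.98 ± 0.22. Subunits and partners of the anaphase-promoting complex were above in 15 of 15.

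Across the cell cycle, DNA replication genes were above background in 38 of 38 cases (median distance 5.56 log2 units), with the helicase subunits Mcm2 and Mcm3 at 5.60 ± 0.25 and 6.08 ± 0.28. Cyclins, cell-cycle kinases and their regulators were above in 24 of 24 (median 4.92), with Ccna2 and Ccnb2 at 6.69 ± 0.20 and 5.72 ± 0.22. A list of germ cell meiosis genes, which also holds the paralogues Plk5 and Cdc20b, had 3 of 29 above background (10.3%, median -1.68). They were Syce2 (5.34 ± 0.23), Stag3 (1.21 ± 0.21) and Mnd1 (1.13 ± 0.25). A list of kinesins from outside the spindle, named transport kinesins, had 16 of 21 above background (76.2%, median 2.89). Kif1b lay at 5.35 ± 0.22 and the neuronal motors Kif1a and Kif5a at -1.77 ± 0.39 and -0.61 ± 0.19. The counts and medians describe each list, and no test was made between lists.

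**Figure D3:**
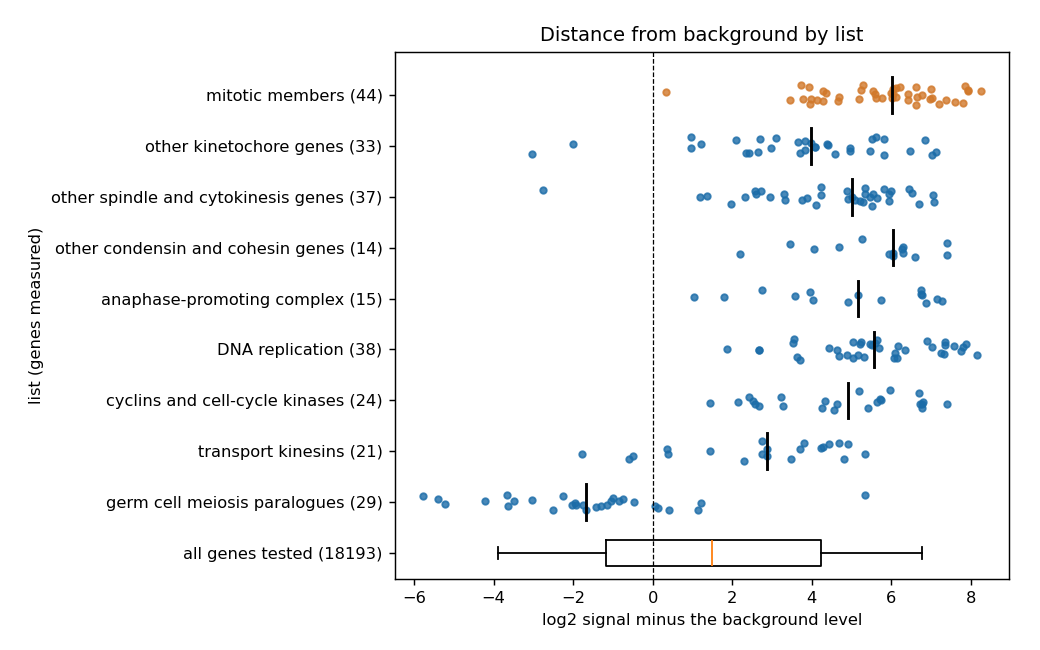
Distance from background (x axis, log2 units) for each gene of the mitotic set and of 8 other lists (y axis, number measured in brackets), with the list median as a bar, and for all genes as a box with whiskers at the 5th and 95th percentiles. The mitotic median is 6.03, that of DNA replication genes 5.56 and that of germ cell meiosis genes and paralogues -1.68.

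The rule takes in every probe set, and probe sets of 1 gene disagreed widely. Of 99 member probe sets, 77 were above background (77.8%), beside 48.5% of all 34945. The 22 that were not had mean signals from 5.19 to 299. Of 30 members with more than 1 probe set, 16 had all of them above background (53.3%, beside 33.6% of all genes above background with more than 1). The gap between the brightest and the dimmest probe set had a median of 4.97 log2 units, beside 4.36 for those genes.

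The widest gap was in Top2a. One probe set gave 37160, 40802 and 42493, another 237, 280 and 672, and the remaining one 6.72, 5.23 and 3.63, the last well under the level on every array. Incenp came next, with a gap of 12.4 log2 units. It had 2 of 5 probe sets above background, and the brightest is of a kind that can cross-hybridise. Without such probe sets its distance was 3.63 in place of 8.26. The same step moved Kif2c to 1.92 from 6.42, Cdca8 to 4.07 from 7.80, Pttg1 to 4.14 from 6.97 and Bub3 to 4.74 from 7.39, and left no value for Aurkb. All of them except Aurkb remained above background. Ncaph and Prc1 had the smallest gaps (0.46 and 0.63 log2 units).

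Probe sets were above background at different rates by their kind. Those built on a RefSeq record were above in 12 of 13 cases (92.3%), and those built on a full-length cDNA clone in 13 of 14 (92.9%). The rest, built on other GenBank records or with no record given, were above in 52 of 72 (72.2%). Over all genes these kinds differed little (48.8%, 49% and 48.4%). The RNA had been amplified in 2 rounds, and control probe sets near the 3′ end were brighter than those near the 5′ end by 5.00, 5.39 and 5.26 log2 units for Gapdh, and by 3.04, 3.40 and 3.04 for Actb, in replicates 1, 2 and 3. The part of this 3′ bias in the disagreement was not tested.

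**Figure D4:**
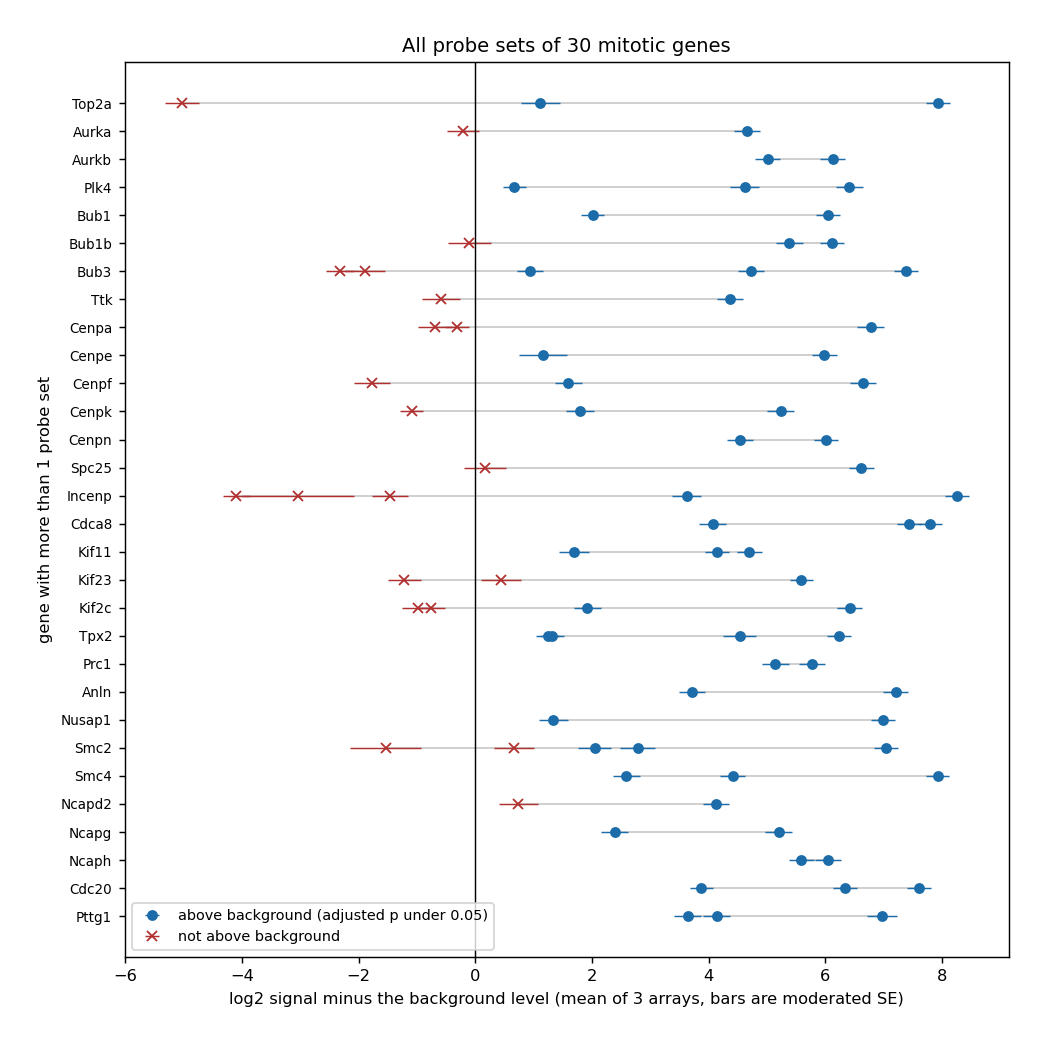
Distance from background (x axis, log2 units, bars are moderated SE over 3 arrays) of every probe set of the 30 mitotic genes with more than 1 (y axis). Circles are above background and crosses are not. In 14 genes at least 1 probe set is a cross although the brightest is a circle.

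The 3 pools gave nearly the same mitotic profile. The median coefficient of variation was 8.97% over the 44 genes, beside 11.4% over all genes above background and 9.36% over those at least 16-fold over the level. In 41 of 44 genes the highest array was under 1.5 times the lowest, and the others were Kif15, Birc5 and Ndc80. As deposited, the highest array was replicate 1 for 20 genes, replicate 2 for 18 and replicate 3 for 6. This depends on scaling. As deposited, replicate 1 exceeded the mean of the others in 26 of 44 genes, beside 56.9% of all genes above background. It did so in 43 relative to the background level (93.3% of all) and in 42 after median centring (89% of all). After quantile normalization it did so in 33 (57.9% of all).

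The set as a whole did not set 1 pool apart. Set against the mean of the other arrays, the members' median difference was 0.06, -0.01 and -0.03 log2 units in replicates 1, 2 and 3, beside 0.04, 0.01 and -0.04 for all genes above background. The SD over members was 0.24, 0.29 and 0.25. Against each array's own background level the medians were 0.43, -0.29 and -0.12, but those of all genes above background moved with them (0.41, -0.28 and -0.12). As deposited, the set lay within 0.022 log2 units of all genes above background. After quantile normalization it differed from them by 0.0011, -0.017 and 0.0088 in replicates 1, 2 and 3. The background level and median centring each shift a whole array by a constant, so they could not change this difference. DNA replication genes had medians of 0.10, -0.02 and -0.13, as deposited. Replicate 3 was above the mean of the others in 9 of 38 replication genes and 18 of 44 mitotic genes, beside 42.7% of all genes above background. Relative to the background level these counts were 2 of 38 and 8 of 44 (28.9% of all), and after median centring 1 of 38 and 2 of 44 (8.48% of all).

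Dim probe sets behaved otherwise. Among the 22 member probe sets not above background, replicate 3 was the highest array in 20, replicates 1 and 2 in 1 each. Over all probe sets not above background, replicate 3 was highest in 47%. Among the 77 above background the split was 28, 26 and 23. Replicate 3 also had the highest median signal over all probe sets (187, against 143 and 162 in replicates 1 and 2). Some probe sets above background, picked after their values were seen, were also highest in replicate 3: Cenpe's second probe set had 200, 289 and 850, and 2 further Smc2 probe sets had 442, 632 and 1104, and 890, 873 and 1860, while the brightest probe sets of Cenpe and Smc2 differed by under 5% among arrays.

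**Figure D5:**
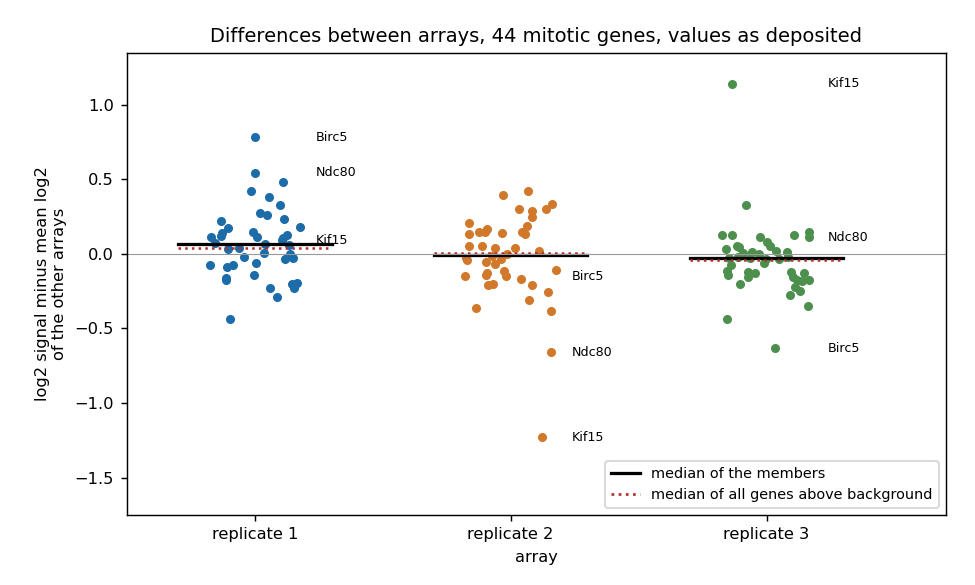
Log2 signal of each mitotic gene on an array minus its mean on the others (y axis), for each array (x axis), as deposited. Black bars are medians of the 44 genes (0.06, -0.01 and -0.03) and dotted bars are medians of all genes above background, and Kif15, Birc5 and Ndc80 are named because they spread by over 1.5-fold.

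Markers of several cell types were read beside the label. The lists were chosen with earlier results of these data known. Without a negative fraction or unsorted kidney, detection cannot decide between the names that the labels give. All 15 markers of the nephrogenic interstitium were above background, with Foxd1 at 28357, 31760 and 25999 and Meis1 at 18605, 18605 and 18247, the second favoured by the sort. Markers of other cell types were above in 24 of 62 cases, beside 57.2% of all genes tested. For the cap mesenchyme it was 7 of 13 (Gdnf and Six2 above, Cited1 at 7.70, 9.67 and 9.09 not). It was 5 of 12 for the ureteric bud, 3 of 8 for early nephron and podocyte and 6 of 10 for endothelium. For erythroid cells it was 1 of 8 (Epor), and for macrophages and leukocytes 2 of 11. The shares for cap mesenchyme (53.8%) and endothelium (60%) lay near that of all genes. Summed signals were 290492 to 326948 for the interstitium list, 46912 to 54304 for the cap mesenchyme list and 728 to 6255 for each of the others. The lists differ in length and in their probe sets, so these sums are not compared with each other, and Gdnf alone gave 24382, 28877 and 27153 of the cap mesenchyme sum. The part of other dividing cells in the mitotic signals was not tested.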

How the data were processed

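RNA of reporter-positive cells was measured on 3 one-colour Affymetrix arrays of 45101 probe sets. The values are intensity values on a linear scale as deposited by the authors. Per the submitters' processing notes GCOS was used, with a version and algorithm not given in the sources used here. After trimming 2% at each end the mean was 1500.01 on each array to 2 decimals, so arrays had been scaled to 1 mean. Control probe sets (64) and those with several symbols (932) or none (9160) were left out. Log2 was taken without a pseudocount. Symbols of all 44 members matched RefSeq (GRCm38.p6) by Entrez ID. Detection used limma 3.58.1 in R 4.3.3 (lmFit with an intercept, then eBayes, prior df 3.53). It was fitted over genes and again over probe sets. The fit was tried on simulated data with independent errors. That simulation left out the array levels and the choice of the brightest probe set, so these steps were not tested. SEs include how the levels vary among arrays. Members, lists and rules were chosen with earlier results of these data known. The genes named are all members, genes among the first 2 above and the first 2 not above background in each other list, and 6 direct paralogues; Foxm1, Mybl2, Lin54 and Mnd1 were named after their values were seen. Nothing in the labels separates the pools by litter, so p-values reflect the variation among these 3 arrays alone, which may be technical. The number of arrays limits the precision.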

Additional observations from a re-analysis of the deposited data

How the results depend on the processing

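Detection was repeated under 13 alternatives: each array left out, other levels, other normalizations, other rules for probe sets, a filter on the dimmest 20% and log2(signal + 16). Under all of them every measured member except Kif15 was above background, and Kif15 was above only without replicate 2 (0.853). The number of members above ran from 43 to 44 when 1 replicate was left out, that of member probe sets from 73 to 79, that of all genes from 9926 to 10358 and the median distance from 5.90 to 6.09. The median distance was 6.39 with the level at the 90th percentile, 5.56 at the 99th, 5.58 with a level from genes restricted to other tissues, 4.06 with the mean over probe sets (43 members above, beside 50.3% of all genes) and 5.23 without _s_at and _x_at probe sets. Kif15 fell below background without replicate 3 (-0.0047), at the 99th percentile (-0.12) and with the level from tissue-restricted genes (-0.10). The median difference of replicate 1 was 0.43 relative to the background level and 0.35 after median centring, where that of replicate 3 was -0.33. No paired analysis was possible because the series holds 1 group.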
